A study of Mus musculus with 8 samples.

Results

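The transcripts of titin and of 8 proteins that sit with it in the cardiac sarcomere were followed in RNA sequencing of whole mouse hearts. The genes were taken by name: titin (Ttn), cardiac myosin-binding protein C (Mybpc3), the M-band genes Myom1 and Myom2, and the Z-disc genes Actn2, Ldb3, Tcap, Csrp3 and Nebl. All 9 had 1 row each among the 17911 genes of the deposited table. Single hearts came from 4 female and 4 male C57Bl6/J wild-type mice, whose age is given as 4 weeks in the design text and as 4 to 6 weeks in the extraction protocol. No mouse carried a transgene or received a treatment that the labels name. All 8 hearts share 1 batch label. Reads assigned to genes ran from 51.7 M to 66.3 M in female hearts and from 55.0 M to 75.7 M in male hearts (M, mega). Xist, the RNA of the inactive X chromosome, lay between 14056 and 14867 normalized reads in female hearts and between 207 and 254 in male hearts. The Y-linked gene Ddx3y lay between 4.85 and 82.8 in female hearts and between 5715 and 6111 in male hearts. The labels of sex thus fitted in 8 of 8 libraries. Nothing in the labels says more of the mice, so p-values speak for the spread between these hearts.

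The sarcomere is the contractile unit of striated muscle, bounded by Z-discs that anchor actin filaments and crossed in its middle by the M-band, which links myosin filaments. Titin is a giant elastic protein that reaches from the Z-disc to the M-band and sets much of the passive stiffness of heart muscle. Alpha-actinin-2 (Actn2) cross-links actin and titin at the Z-disc, telethonin (Tcap) caps the titin ends there, and myomesins (Myom1, Myom2) bind titin and myosin in the M-band. Mutations of several of these genes cause cardiomyopathy in humans.

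In the mm10 annotation (GENCODE vM21) Ttn lies on chromosome 2 from 76703980 to 76982547 on the minus strand, and its longest coding transcript joins 347 exons over 106.8 kb. Mybpc3 lies on the same chromosome from 91118144 to 91136516 on the plus strand, and Nebl, which encodes nebulette, from 17343909 to 17731464 on the minus strand. Tcap, on chromosome 11 from 98383811 to 98384953 on the plus strand, covers the least annotated exon, 0.948 kb in 2 exons, although the longest coding transcript of Csrp3 is shorter (0.899 kb). Actn2 spans 12269426 to 12340760 on chromosome 13 and Ldb3 spans 34526603 to 34588682 on chromosome 14, each on the minus strand. Csrp3 lies on chromosome 7 from 48830398 to 48848033 on the minus strand. Myom1 runs from 71002633 to 71126856 on chromosome 17 and Myom2 from 15057653 to 15133541 on chromosome 8, each on the plus strand. An exon of Ttn overlaps the antisense gene Gm13938, and the start of Myom1 overlaps Myl12a on the opposite strand. Whether the authors counted by strand is not stated in the sources used here, so reads from those stretches cannot be assigned to a strand.

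Promoter sequences in RefSeq (GRCm38.p6) were matched by symbol for 7 of the 9 genes (all but Tcap and Myom2), with 12 annotated starts in all. Of the 7, 6 held a motif known from muscle or clock promoters in the 250 bases before a start; those of 5 are shown, and Nebl, whose motifs lie at different starts, is described only. Ttn and Mybpc3 each held a MEF2 site, a motif found in 0.508% of 32851 promoters. Ldb3 and Myom1 each held a CArG box, as did 1.47% of promoters and 1 of the 4 starts of Nebl; the 2 starts of Ldb3 share 1 box. Actn2 held CACGTG at 2 places (6.02% of promoters). TATAAA was found in 12.4% of promoters and at none of these 12 starts. CATTCC was found in 12.6% of promoters and at 1 start of Nebl, and AGGTCA in 14.0% of promoters, in Actn2 and at 1 start of Nebl. Both strands were searched, and the MEF2 site, the CArG box and CACGTG read alike on either strand. The sequences run 5′ to 3′ on the gene's strand and end at the base before the start; capitals mark the MEF2 site (Ttn, Mybpc3), the CArG box (Myom1, Ldb3) and CACGTG (Actn2). A match is a string of letters, and binding was not measured.
Ttn, chr2:76982548-76982797, minus strand: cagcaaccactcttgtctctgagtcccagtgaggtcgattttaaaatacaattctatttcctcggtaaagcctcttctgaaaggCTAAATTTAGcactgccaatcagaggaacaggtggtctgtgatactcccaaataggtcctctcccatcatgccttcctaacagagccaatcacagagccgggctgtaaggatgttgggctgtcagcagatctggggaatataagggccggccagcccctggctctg
Mybpc3, chr2:91117894-91118143, plus strand: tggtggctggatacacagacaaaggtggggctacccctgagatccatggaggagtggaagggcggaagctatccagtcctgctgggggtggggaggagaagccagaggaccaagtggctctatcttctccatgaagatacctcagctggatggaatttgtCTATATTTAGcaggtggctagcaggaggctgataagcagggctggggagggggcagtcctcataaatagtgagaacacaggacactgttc
Myom1, chr17:71019307-71019556, plus strand: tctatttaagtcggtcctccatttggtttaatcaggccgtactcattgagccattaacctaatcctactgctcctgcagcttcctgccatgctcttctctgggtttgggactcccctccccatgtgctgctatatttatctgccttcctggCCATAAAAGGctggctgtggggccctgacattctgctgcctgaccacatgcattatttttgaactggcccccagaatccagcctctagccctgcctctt
Ldb3, chr14:34588682-34588931, minus strand: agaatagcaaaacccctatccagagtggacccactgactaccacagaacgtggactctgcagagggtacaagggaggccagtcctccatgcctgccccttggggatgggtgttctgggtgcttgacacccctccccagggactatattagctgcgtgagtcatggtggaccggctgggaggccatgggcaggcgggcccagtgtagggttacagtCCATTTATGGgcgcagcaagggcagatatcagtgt
Actn2, chr13:12340733-12340982, minus strand: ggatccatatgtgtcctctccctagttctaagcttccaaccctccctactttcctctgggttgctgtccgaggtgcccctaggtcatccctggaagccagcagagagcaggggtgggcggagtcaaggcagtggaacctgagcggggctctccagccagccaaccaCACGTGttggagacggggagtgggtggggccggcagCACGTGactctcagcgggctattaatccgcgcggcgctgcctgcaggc

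Per kilobase of annotated exon, Tcap stood highest of the 9 and Nebl lowest. Tcap averaged 82371 ± 10102 normalized reads per kb in female hearts and 69298 ± 14106 in male hearts (SD, n = 4 each). Mybpc3 followed with 57251 ± 2567 in female hearts and 58387 ± 2304 in male hearts. Tcap exceeded Mybpc3 in 8 of 8 hearts, although their ranges over all hearts touched. Actn2 (29064 to 31129 per kb over the 8 hearts) and Csrp3 (23092 to 26082), which encodes the muscle LIM protein, came next without overlap. Ldb3, Myom2 and Myom1 could not be put in order: their ranges were 9997 to 10640, 8857 to 11346 and 9817 to 10582 per kb. Ttn lay at 3063 ± 51.0 per kb in female hearts and 2968 ± 222 in male hearts, and Nebl at 1613 ± 75.1 and 1555 ± 96.2 in the same order of the sexes. Ttn still took the largest share of reads, between 0.511% and 0.580% of a library, since its exons cover 116.8 kb. With the longest coding transcript as the length in place of all annotated exons, Csrp3 moved to the second place (mean 71928 per kb) and its range overlapped that of Tcap. On that scale the ranges of Ttn and Nebl overlapped too, with Ttn above Nebl in 8 of 8 hearts. Counts are per gene, so titin isoforms such as N2B and N2BA, and the products of the 4 RefSeq starts of Nebl, were not separated.

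**Figure D1:**
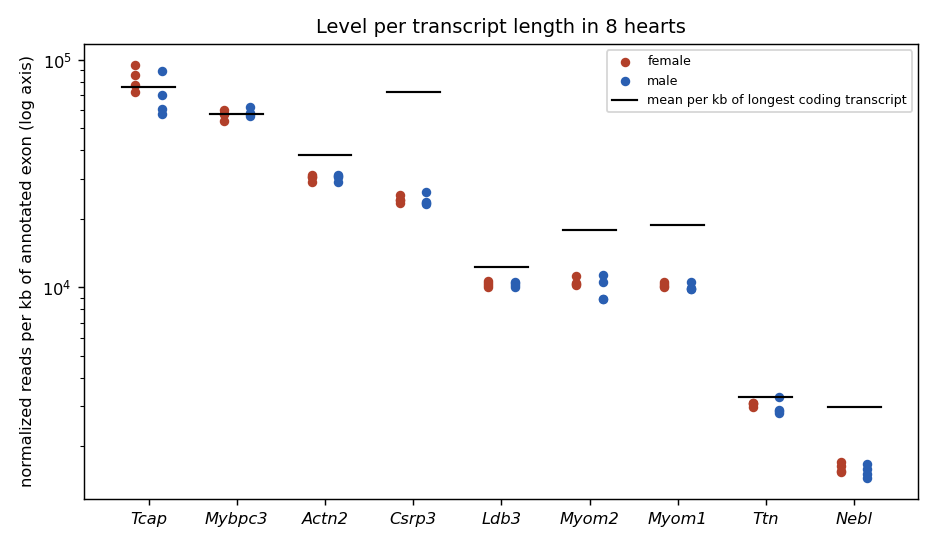
Normalized reads per kb of annotated exon (log axis) for the 9 genes, from highest to lowest mean; points are single hearts, female left of male, and black bars are the mean per kb of the longest coding transcript. Tcap stands highest and Nebl lowest, and Csrp3 is the gene whose level depends most on the length used.

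None of the 9 genes passed the test between female and male hearts. Of the 9, 0 were called with limma at an adjusted p under 0.05, where 1.16% of all 17911 genes were called, and 0 had an unadjusted p under 0.05 (16.0% of all genes). DESeq2 called 0 of the 9, beside 4.9% of the 14088 genes it tested (2.16% higher and 2.73% lower in female hearts). The edgeR test with TMM factors and limma-voom also called 0 of the 9, beside 0.927% (0.335% higher, 0.592% lower) and 0.983% (0.385% higher, 0.597% lower) of all genes. No gene of the 9 had female and male hearts without overlap, against 9.35% of all genes (4.52% higher, 4.82% lower). Fold changes on the log2(value + 1) scale were positive for 7 genes and negative for 2, with a median of 0.03, beside 0.00 over all genes. The 95% limma intervals of the 7 genes other than Tcap and Myom2 stayed between -7.80% and 11.4% of the male level. Those of Myom2 and Tcap were wider, and the interval of Tcap reached 55.3%. In the authors' deposited table the adjusted p of the 9 genes lay between 0.497 (Tcap) and 0.981 (Ldb3). In bulk RNA from whole hearts, fewer muscle cells and less RNA per muscle cell cannot be told apart.

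**Figure D2:**
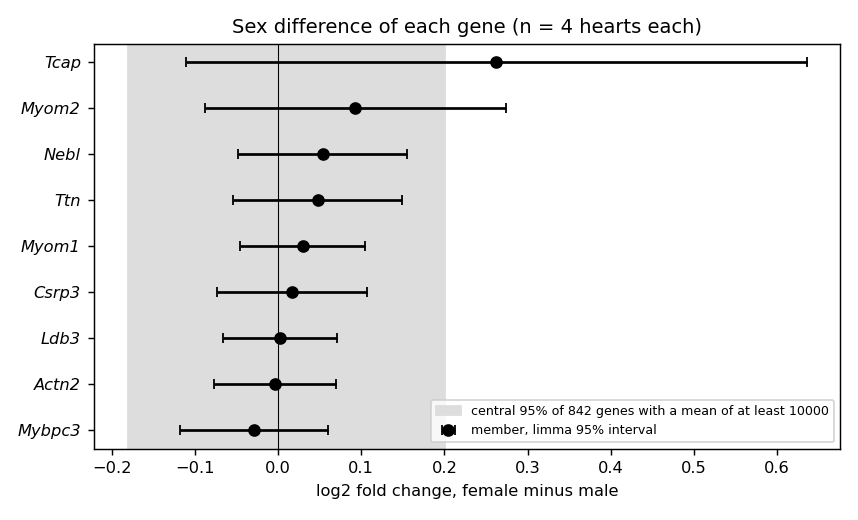
Log2 fold change of each gene, female minus male (points), with limma's 95% interval; the grey band holds the central 95% of 842 genes with a mean of at least 10000 normalized reads. All 9 intervals include 0, and that of Tcap is the widest.

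Together the 9 genes drew a nearly constant share of the reads in female hearts and a more variable one in male hearts. The share was 1.77%, 1.78%, 1.79% and 1.78% in female replicates 1 to 4. In male replicates 1, 3, 4 and 5 it was 1.67%, 1.67%, 1.71% and 1.82%. Male replicate 5 thus stood above the female hearts and the other male hearts below them. It was the highest of the 8 hearts for 4 of the 9 genes (Ttn, Mybpc3, Myom2 and Actn2) and the lowest for Csrp3. For how many of all genes this heart was highest or lowest was not counted, so no trait of the 9 is drawn. Leaving it out moved the limma calls over all genes from 85 to 239 higher and from 123 to 277 lower.

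**Figure D3:**
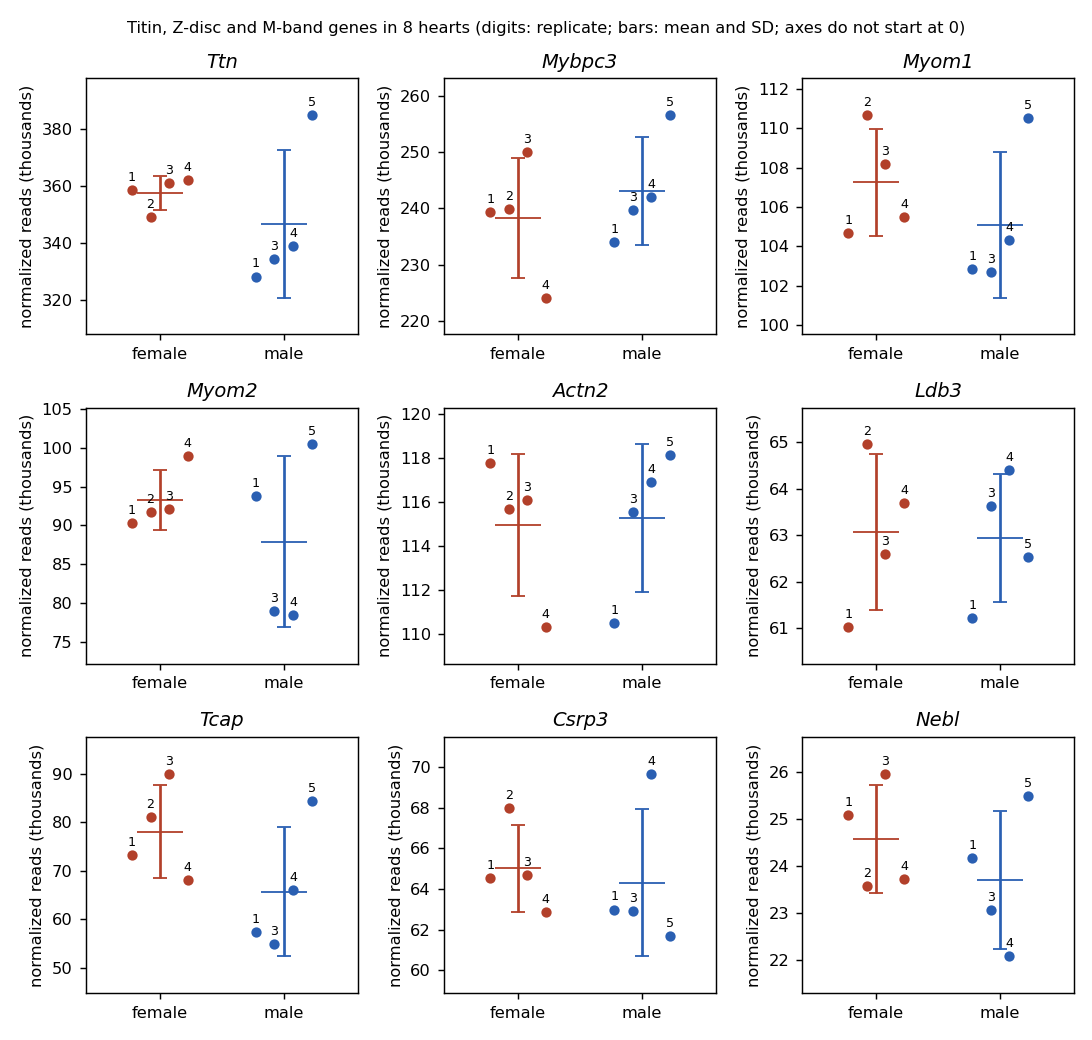
Normalized reads of each gene in the 8 hearts, female left of male; digits give the replicate, and bars give the mean and SD. Axes do not start at 0. The sexes overlap for every gene, and male replicate 5 is the highest male heart for Ttn, Mybpc3, Myom1, Myom2, Actn2, Tcap and Nebl.

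Ttn had 358816, 349103, 361083 and 362174 normalized reads in female replicates 1 to 4. Male replicates 1, 3, 4 and 5 had 328332, 334643, 339133 and 385068. The female hearts lay close together, and 3 male hearts lay below them and male replicate 5 above. The mean was 357794 ± 5960 in female hearts against 346794 ± 25897 in male hearts (SD, n = 4 each). The difference was 0.05 on the log2 scale with an SE of 0.05 (limma, adjusted p = 0.676). The 95% interval ran from -3.65% to 10.9%. Without male replicate 5 all 4 female hearts exceeded the 3 male hearts left, and the fold change was 0.10 (limma adjusted p = 0.143). The level of Ttn moved with library depth. The 3 deepest libraries, male replicates 1, 3 and 4 with 70.2 M to 75.7 M reads, held the 3 lowest values, and the 3 shallowest libraries (51.7 M to 61.6 M) held the 3 highest. With total reads as a covariate the fold change was -0.0029 (limma adjusted p = 0.985). Myom1 and Tcap also had their 3 lowest values in the 3 deepest libraries. Depth and sex were partly confounded, and the part of depth in the levels of these genes was not tested. Deviations of log2(value + 1) from the mean of the 8 hearts were taken over 1439 genes with more than 10 kb of exon. Their median ran from 0.0027 to 0.023 in female hearts. It was -0.0031, -0.010, -0.035 and 0.0032 in male replicates 1, 3, 4 and 5. Ttn ran from -0.011 to 0.042 in female hearts and had -0.100, -0.072, -0.053 and 0.130 in those male hearts. The part of transcript length was not tested.

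**Figure D4:**
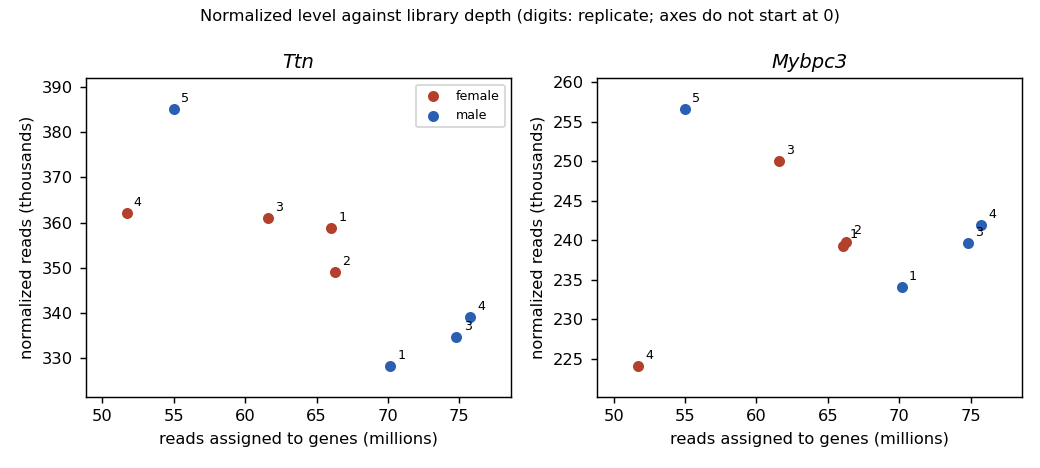
Normalized reads of Ttn and Mybpc3 against the reads assigned to genes (M) in each heart; digits give the replicate, and axes do not start at 0. Ttn is lowest in the 3 deepest libraries, whereas Mybpc3 is both highest and lowest in the 2 shallowest. Myom1 and Tcap, not plotted here, are also lowest in the 3 deepest libraries.

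By the smallest root mean square difference of centred log2 values over the 8 hearts, the genes whose pattern was nearest to that of Ttn were Eif4ebp1, Clcn6, Map4k3 and Trio. Their differences from Ttn were 0.0260, 0.0260, 0.0276 and 0.0277, with 6515 genes eligible. Eif4ebp1 encodes a repressor of cap-dependent translation initiation, Clcn6 a chloride-proton exchanger, Map4k3 a protein kinase and Trio a guanine nucleotide exchange factor. None of the 4 encodes a sarcomere protein. Each was highest in male replicate 5, as Ttn was, which follows in part from their choice by pattern. An exon of Map4k3 overlaps a pseudogene on the opposite strand.

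The other genes of the thick filament and the M-band differed in how tightly they were held. Mybpc3, whose product regulates cross-bridge cycling, had 239328, 239840, 250053 and 224120 normalized reads in female replicates 1 to 4. In male replicates 1, 3, 4 and 5 it had 234093, 239641, 241948 and 256578. The ranges overlapped, with the lowest value in female replicate 4 and the highest in male replicate 5 (log2 fold change -0.03, SE 0.04, limma adjusted p = 0.791). Myom1 encodes myomesin-1, a cross-linker of myosin filaments, and had 104664, 110674, 108178 and 105477 in female hearts against 102831, 102672, 104317 and 110524 in male hearts. All female hearts lay above 3 of the 4 male hearts, and the fold change was 0.03 (SE 0.03, limma adjusted p = 0.735).

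Myom2, the M-protein gene of fast fibres and heart, varied more than Myom1. It had 90336, 91656, 92095 and 98885 in female hearts and 93800, 78890, 78412 and 100445 in male hearts. Male replicates 3 and 4 stood apart at the low end, below all other hearts. The fold change was 0.09 (SE 0.08, limma adjusted p = 0.631) with a 95% interval from -5.90% to 20.9%. Its mean coefficient of variation within a sex was 8.32%, against 3.03% for Myom1 and a median of 3.52% over 842 genes with a mean of at least 10000. Without male replicate 5 its fold change was 0.16 (limma adjusted p = 0.213), and with total reads as a covariate it was -0.0020. The genes nearest to Myom2 in pattern were Clk1, Ndrg1, Art3 and Fbxo32, at root mean square differences of 0.0416, 0.0434, 0.0477 and 0.0507 among 3315 eligible genes. Clk1 encodes a kinase of splicing factors and Fbxo32 encodes atrogin-1, a muscle ubiquitin ligase. Exons of Ndrg1, Art3 and Fbxo32 overlap genes on the opposite strand, so the source of part of their reads is uncertain.

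Actn2, Ldb3 and Csrp3 had the smallest differences between the sexes among the 9 genes. Actn2 averaged 114949 ± 3227 in female hearts against 115268 ± 3352 in male hearts (SD, n = 4 each). Its limma adjusted p was 0.969, with a 95% interval from -5.23% to 4.93%. Ldb3 encodes ZASP (Cypher), a PDZ and LIM protein that binds alpha-actinin, and had the smallest spread of the 9, with a coefficient of variation of 2.42%. It had 61031, 64957, 62593 and 63705 in female hearts and 61219, 63624, 64405 and 62531 in male hearts, with an interval from -4.45% to 5.06%. Csrp3 had 64539, 67986, 64694 and 62846 in female hearts and 62991, 62904, 69666 and 61679 in male hearts. Male replicate 4 was the highest of the 8 for Csrp3 and male replicate 5 the lowest (log2 fold change 0.02, SE 0.04, limma adjusted p = 0.891). The directions of Actn2, Ldb3 and Csrp3 turned when single hearts were left out or another model was used, so no direction is drawn for them.

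Nebl, whose protein nebulette binds actin at the Z-disc, had 25076, 23563, 25961 and 23718 in female hearts. In male hearts it had 24162, 23062, 22077 and 25485. The sexes overlapped, and the fold change was 0.05 (SE 0.05, limma adjusted p = 0.630, 95% interval from -3.26% to 11.4%). Without male replicate 5 it was 0.09 (limma adjusted p = 0.311). Even its 19472 reads in the least covered heart gave a counting error of 0.717%, below its coefficients of variation of 4.66% in females and 6.18% in males.

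Tcap was the most variable of the 9 genes. It had 73173, 81011, 90048 and 68118 normalized reads in female replicates 1 to 4. Male replicates 1, 3, 4 and 5 had 57388, 54924, 66026 and 84440. The 3 lowest hearts were male and were the 3 deepest libraries, yet male replicate 5 was the second highest of all. The mean was 78087 ± 9577 in female hearts against 65694 ± 13373 in male hearts (SD, n = 4 each). The difference was 0.26 on the log2 scale with an SE of 0.16 (limma, adjusted p = 0.481). The 95% interval ran from -7.38% to 55.3%. Without male replicate 5 the fold change was 0.39 (limma adjusted p = 0.139). With total reads as a covariate it was 0.18 (limma adjusted p = 0.706). The highest heart had 1.64 times the reads of the lowest, where the other 8 genes ranged from 1.06 (Ldb3) to 1.28 times (Myom2). A mean coefficient of variation of 16.3% within a sex placed Tcap above 98.1% of the 842 genes with a mean of at least 10000.

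The genes nearest to Tcap in pattern over the 8 hearts were Nr1d2, Cry2, Bhlhe41 and Usp2, at root mean square log2 differences of 0.0391, 0.0821, 0.101 and 0.111 among 810 eligible genes. Nr1d2 encodes REV-ERBβ, a nuclear receptor that represses clock genes, and Cry2 a cryptochrome of the clock's negative limb. Bhlhe41 encodes the clock repressor DEC2, and Usp2 a deubiquitinase. Nr1d2 had 7499, 7984, 9423 and 7437 normalized reads in female replicates 1 to 4 and 5940, 5712, 6807 and 8928 in male replicates 1, 3, 4 and 5. For Tcap and Nr1d2 alike, female replicate 3 was the highest heart, male replicate 5 the second and male replicate 3 the lowest. Nr1d2 was chosen by its nearness to Tcap over these hearts, so a like order follows in part from the choice. An exon of Cry2, of Bhlhe41, of Usp2 and of Arntl overlaps a gene on the opposite strand, so the source of part of their reads is uncertain.

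Of 19 clock genes, a list drawn up after these values were seen, 7 were lowest in male replicate 3, as were 11.9% of all genes. Female replicate 3 was the highest heart for 4 of the 19 and the lowest for 1, beside 13.9% and 14.7% of all genes. Nr1d2, Cry2 and Bhlhe41 are among the 7, and Nr1d2 and Cry2 among the 4. They had been picked for a pattern near that of Tcap, so these counts are not independent of that choice. Arntl, which encodes the clock activator BMAL1, had 1023, 895, 641 and 822 normalized reads in female hearts and 1424, 1226, 858 and 393 in male hearts. It was highest in male replicates 1 and 3, the hearts with the least Tcap, and lowest in male replicate 5 and female replicate 3, the hearts with the most. Of the 19, Arntl was the farthest from Tcap in pattern, at a root mean square log2 difference of 0.742. Not every clock gene followed or opposed Tcap. Cry1 lay above its mean log2 value in male replicates 1 and 3 and also in male replicate 5 and female replicate 3. The hour of dissection is not in the labels, and its part in the spread of Tcap was not tested.

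**Figure D5:**
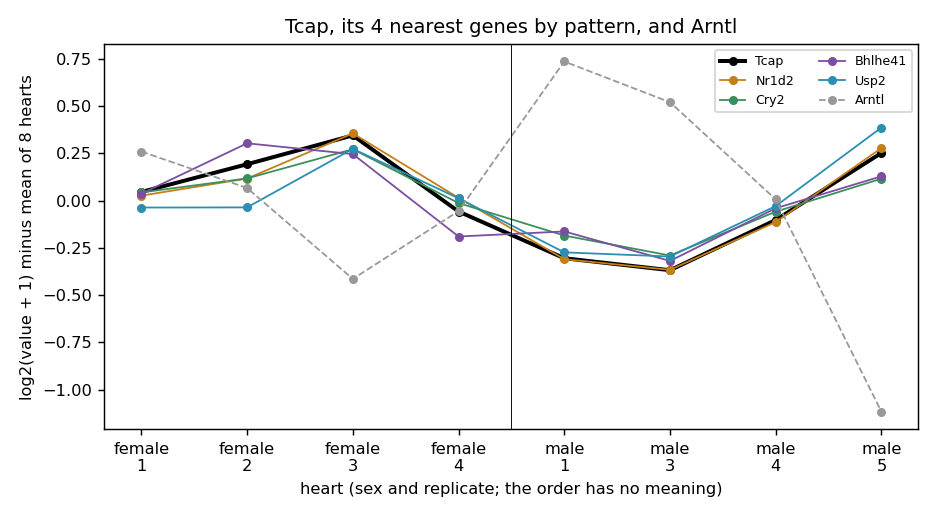
Log2(value + 1) minus the mean of the 8 hearts for Tcap, its 4 nearest genes by pattern and Arntl; female hearts stand left of male hearts, and lines only join the points of a gene. Tcap and Nr1d2 nearly coincide. Arntl, the farthest from Tcap of the 19 clock genes, is highest in the hearts where Tcap is lowest.

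Ratios between members, which do not depend on a heart's size factor, overlapped between the sexes in each of the 5 pairs compared. The ratio of Ttn to Tcap reads was 4.90, 4.31, 4.01 and 5.32 in female replicates 1 to 4 and 5.72, 6.09, 5.14 and 4.56 in male replicates 1, 3, 4 and 5. The difference in its log2 was -0.21 (two-sided exact permutation p = 0.143, adjusted over the 5 ratios 0.333, n = 4 each). The log2 of Ttn over Mybpc3 was 0.58, 0.54, 0.53 and 0.69 in female hearts and 0.49, 0.48, 0.49 and 0.59 in male hearts, a difference of 0.08 (exact permutation p = 0.171, adjusted 0.333). Csrp3 over Tcap was 0.841 ± 0.0883 in female hearts against 1.01 ± 0.188 in male hearts (SD, n = 4 each; exact permutation p = 0.200, adjusted 0.333). Myom1 over Myom2 was 1.15 ± 0.0603 in female hearts against 1.21 ± 0.126 in male hearts, with an exact permutation p = 0.429 (n = 4 each). Ldb3 over Actn2 was 0.549 ± 0.0259 in females and 0.546 ± 0.0114 in males, with an exact permutation p = 0.943 (n = 4 each). With 4 hearts of each sex the smallest p this test can give is 0.0286.

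Among 29 other genes listed for the Z-disc, 0 rose and 1 fell in female hearts, where 0.475% of all genes rose and 0.687% fell. The gene that fell was Pdlim7 (Enigma), a PDZ and LIM protein, with 2283, 2151, 2225 and 2213 normalized reads in female hearts and 2444, 2825, 2594 and 2453 in male hearts. Its log2 fold change was -0.22 (limma adjusted p = 0.0498), and the call held in 1 of the 8 fits without 1 heart. The list had a median of -0.03, and 10 of 29 genes had an unadjusted p under 0.05, beside 16.0% of all genes. Synpo2l, which encodes a Z-disc protein bound to actin, had a fold change of 0.28 (limma adjusted p = 0.141), and Sorbs2, an adaptor gene, one of 0.09 (0.151). Ankrd2, a stretch-responsive gene, was near the floor of the table, at 10.5 ± 4.18 in female hearts against 22.1 ± 4.58 in male hearts (SD over 4 hearts each; limma adjusted p = 0.143).

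Among 16 other genes listed for the M-band or its partners, Speg and Alpk2 rose in female hearts and 0 fell. Of all genes 0.475% rose and 0.687% fell. Speg, a giant muscle kinase related to titin and obscurin, had 22061, 23111, 23525 and 23704 normalized reads in female hearts and 20038, 21221, 21130 and 20670 in male hearts. The sexes did not overlap, and the fold change was 0.15 (limma adjusted p = 0.0493), called in 2 of the 8 fits without 1 heart. Alpk2, an alpha-kinase gene, had 15792, 16370, 14938 and 14344 in female hearts and 13445, 13226, 12294 and 11336 in male hearts, a fold change of 0.29 (limma adjusted p = 0.0425), called in 3 of those 8 fits. Exons of Alpk2 overlap antisense genes. Smyd2, a lysine methyltransferase gene, and Ckm, muscle creatine kinase, had fold changes of -0.18 and -0.14 (limma adjusted p = 0.063 and 0.112). The list median was 0.02.

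Of 10 regulators of titin splicing, 0 were called with limma (1.16% of all genes), 3 had an unadjusted p under 0.05 (16.0% of all genes), and DESeq2 called 1 (4.9% of the genes it tested). Rbm20, the main splicing repressor of titin exons in heart, had 16591, 16976, 18612 and 16716 normalized reads in female hearts and 15461, 14720, 15904 and 16596 in male hearts. These ranges overlapped narrowly, and the fold change was 0.14 (limma adjusted p = 0.165). Rbfox2 did not overlap between the sexes, with 6672 to 7764 in females and 6202 to 6547 in males (fold change 0.18, limma adjusted p = 0.0631). Rbfox1 had a fold change of 0.13 and Srsf1 one of 0.03. The list median was 0.02, and 9 of 10 fold changes were positive, as were 9119 of all 17911.

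Of 18 paralogs of the 9 genes, 0 rose and 1 fell in female hearts, where 0.475% of all genes rose and 0.687% fell. The gene that fell was Pdlim7 again, called in 1 of the 8 fits without 1 heart, and the list median was -0.03. Nebulin itself (Neb), the skeletal muscle relative of Nebl, averaged 694 ± 108 in female hearts against 946 ± 189 in male hearts (SD over 4 hearts each; limma adjusted p = 0.258). Pdlim1 and Lasp1 had fold changes of -0.10 and -0.14 without passing the test.

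Markers of heart muscle were high in every library: the 8 cardiomyocyte markers summed to 4443274 to 4862792 normalized reads in female hearts and 4286001 to 4654133 in male hearts. Myh6 made up the largest part of these sums. Among the 8, 1 rose and 0 fell in female hearts, where 0.475% of all genes rose and 0.687% fell. The gene that rose was Ryr2, the calcium release channel of the sarcoplasmic reticulum. It had 126349 to 130901 in female hearts and 105166 to 118086 in male hearts (log2 fold change 0.20, limma adjusted p = 0.0341). Actc1, cardiac actin, did not overlap either but was not called, with 476642 to 521348 in female hearts and 525110 to 606956 in male hearts (log2 fold change -0.19, limma adjusted p = 0.0796). Of 10 skeletal muscle markers 7 were measured, as Myh1, Myh2 and Myh4 had no row among the 17911 genes. The 7 had sums of 9749 to 11478 in female hearts and 9519 to 10444 in male hearts. Myh7b, which the heart also expresses, made up most of these sums, at 8453 to 9681 in female hearts and 7848 to 8696 in male hearts. Others varied more between hearts: Mylpf had 103 to 364 in female hearts and 222 to 461 in male hearts, and Tnnt3 had 81.5 to 218 in female hearts and 151 to 227 in male hearts. The 5 atrial markers summed to 131727 to 167495 in female hearts and 122309 to 186222 in male hearts, and those of fibroblasts, endothelium, smooth muscle and red cells overlapped between the sexes too. Of 5 macrophage markers 0 rose and 3 fell in female hearts, where 0.475% of all genes rose and 0.687% fell. The 3 that fell were C1qa, C1qb and Csf1r (limma adjusted p = 0.0359, 0.0493 and 0.0481). The 5 markers summed to 8105 to 9670 in female hearts and 10202 to 13002 in male hearts. The part of cell make-up in the levels of the 9 genes was not tested.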

How the data were processed

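RNA of 8 whole hearts, 4 female and 4 male, was sequenced. Per the labels' protocols, each heart went into Trizol and its RNA came from a miRNA isolation kit, described there as giving small RNA, whereas the molecule is labelled total RNA. The deposited signal columns hold reads per gene scaled by the authors with 1 factor for each heart (0.821 to 1.17), as the values show: 100% of them were whole multiples of 1 read (tolerance 0.001 reads). The build is mm10, per the submitters' processing notes; the aligner, counter, strand setting and filter are not given in the sources here. Recovered reads per heart ran from 51.7 M to 75.7 M, below the 80 M stated in the labels. The deposited log2 fold change and the authors' p-values were used only where named.

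The main test was limma 3.58.1 (trend, robust; R 4.3.3) on log2(value + 1) for female over male hearts. It covered the 17911 genes with a value of at least 1 in 4 or more hearts (0 genes removed), and a gene was called when its p, adjusted by Benjamini-Hochberg, was under 0.05. Count tests on the recovered reads (edgeR 4.0.16, DESeq2 1.42.0, limma-voom) were alternatives, and the scripts were tested on simulated data. Ratios used two-sided exact permutation tests over 70 assignments. Lists are described by counts and medians. They were drawn up by gene name, and where the products sit in the sarcomere was not measured. The nearest genes were sought among those with a mean of at least 1000 and a standard deviation of at least 0.5 times the member's. Named genes were the 9 members, the called genes of each list and its 4 of smallest p. The members and lists were chosen with earlier results of these data known. Pairs of hearts within a sex differed by 8.21 to 18.4 times the sampling noise (chi-square per degree of freedom), so each counted as 1 sample. Intervals cover the spread between hearts; counting errors of single genes cover counting only.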

Additional observations from a re-analysis of the deposited data

Results flagged for a closer look

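Among 58 groups of 4 hearts tested for a single distant heart, 3 passed the critical value of Dixon's ratio (5.17%), where chance flags about 1 in 20. Csrp3 in male hearts had its highest value in male replicate 4, at 0.836 of the range from the nearest male heart in normalized reads. On the log2 scale that ratio was 0.827, below the critical value. The log2 ratio of Ttn to Mybpc3 in male hearts was highest in male replicate 5, at 0.939 of the range, with the ratios of the other 3 male hearts at 1.40. The log2 ratio of Ldb3 to Actn2 in male hearts was lowest in male replicate 5, at 0.872 of the range.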

How the results depend on the processing

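Under the 12 alternative models and the 8 fits without 1 heart, 0 of the 9 members were called. Myom1, Tcap and Nebl kept a positive fold change in all 20. Not all 20 could move a direction: the fit with no filter repeats the main fit, and a filter on the mean leaves fold changes as they were. In the replicate block by title number, female replicate 2 and male replicate 5 have no partner of the other sex. They add nothing to the fold change there. The same holds for female replicate 2 and male replicate 4 in the block by library code number. With total reads as a covariate Ttn was at -0.0029, Myom2 at -0.0020 and Actn2 at 0.0029. Actn2 was at 0.0048, Ldb3 at -0.015 and Csrp3 at -0.024 with the replicate block by title number, and Ldb3 at -0.00039 with the replicate block by library code number and -0.00042 with upper quartile factors. Without 1 heart Actn2 ran from -0.024 to 0.016, Ldb3 from -0.012 to 0.018, Csrp3 from -0.0048 to 0.056, Mybpc3 from -0.052 to 0.00059, and the log2 ratio of Ldb3 to Actn2 from -0.018 to 0.034. Ttn ran from 0.02 to 0.10, Myom2 from 0.04 to 0.16, Tcap from 0.18 to 0.39 and Nebl from 0.02 to 0.09. The cause was not tested.

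Counts over all genes (85 higher, 123 lower) were 305 and 385 with DESeq2, 11 and 15 with the replicate block by library code number, and 53 and 55 higher with upper quartile factors and with total reads. Without 1 heart they ran from 30 to 239 higher and from 47 to 277 lower. DESeq2 called 2 Z-disc genes higher and 4 lower, 2 M-band genes lower, 1 splicing regulator higher and 2 paralogs lower. The call of Pdlim7 (1 Z-disc gene, also 1 paralog, lower) went to 0 with the 3 edgeR fits, limma-voom, a pseudocount of 0.1, both replicate blocks and total reads. The 2 M-band calls went to 1 with edgeR TMM, edgeR RLE, limma-voom and total reads, and to 0 with upper quartile factors and both replicate blocks. Without 1 heart these lists ran from 0 to 1 (Z-disc in each direction, M-band lower, splicing higher, paralogs lower) and from 0 to 2 (M-band higher). The deviations of hearts with the same title number had correlations of 0.193, -0.0738 and -0.0944. Pairs by library code had 0.193, -0.0738 and 0.193. Pairs of unlike numbers ran from -0.247 (female replicate 2, male replicate 5) to 0.276 (female replicate 3, male replicate 5). Whether either number marks hearts that belong together was not tested.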
